A study of Mus musculus with 37 samples.

Results

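The comparison set the ureteric tip against the S-shaped body of the fetal mouse kidney at E15.5, counted in days of embryonic life. Its members were chosen by the tissue named as the source of each array: 3 arrays of ureteric tip and 4 arrays of S-shaped body, out of 37 arrays of 9 kidney components. Every one of the 7 came from CD-1 mice given as wild-type, at Theiler stage 23 with the sex unknown. Each array held a pool of about 50 frozen sections from 5 kidneys, in which the structure was cut out by laser capture, and the RNA was amplified in 2 rounds before hybridization to an Affymetrix array. The labels do not say whether the pools of a group shared animals, so the p-values below measure a spread between arrays and not between animals. The 15709 genes tested were all genes with a probe set above the filter. In pools of this kind, fewer cells of a type and less RNA per cell cannot be told apart.

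Both structures are epithelia of the outer cortex, and they differ in origin. The ureteric tip is the growing end of the branching ureteric tree, which becomes the collecting duct system: it carries the receptor Ret, receives Gdnf from the surrounding mesenchyme, and secretes Wnt ligands that induce new nephrons. The S-shaped body is a nephron in the making. It forms from mesenchyme that has turned into an epithelial vesicle, is patterned along its length with the help of Notch signalling, and holds the precursors of podocytes, proximal tubule and distal tubule, while a cleft at one end draws in the first endothelial and mesangial cells.

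Values are log2 of the scanner signal after quantile normalization of all 37 arrays. A signal of 0 would lie near 5.11 before that step, so values between about 5 and 6 are at the floor of the scale. A fold change is the mean of the tips less the mean of the S-shaped bodies on this log2 scale, positive where the tip was higher. SE is its standard error. Calls, for which the word higher is kept, required a Benjamini-Hochberg adjusted p under 0.05 in limma's moderated test and a difference between the group means of 1 log2 unit or more. The SE and the limma p-values draw on the spread within each of the 9 components over all 37 arrays, not only within the 7 arrays compared. A gene stands for the probe set with its highest mean level, and its values and call are those of that probe set unless another is named. Replicates carry accession-order numbers, which pair no samples.

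The array of S-shaped body replicate 3 stood apart from the rest of its group. Over all genes its correlation with the other S-shaped bodies was 0.812 to 0.828, while those 3 correlated at 0.908 to 0.938 with each other and the tips at 0.923 to 0.954. Its closest array of all was a renal corpuscle, replicate 1, at 0.846. The titles of the 7 arrays compared end in numbers that are read here as dates, and the labels do not say what they record. Read in this way, the title of replicate 3 bears the same date as those of S-shaped body replicates 1 and 4. Many results are therefore given with and without this array, and a fold change given once is with it. The median signal before normalization was 292 to 312.4 in the tips and 167.1 to 258.7 in the S-shaped bodies (two-sided exact permutation p = 0.0857, with 0.0571 the smallest that 3 against 4 arrays can give). The log2 ratio of the 5-prime to the 3-prime Actb control probe sets, a measure of how complete the labelled RNA was, averaged -1.84 in the tips and -2.55 in the S-shaped bodies (exact permutation p = 0.143). Of the 8 tip markers measured (Ret, Gfra1, Wnt11, Etv4, Sox8, Slco4c1, Calb1 and Gata3) all 8 read more in each tip than in any S-shaped body. Of 8 markers of the S-shaped body (Lhx1, Jag1, Dll1, Wnt4, Cdh6, Pax8, Osr2 and Pou3f3), S-shaped bodies 1, 2 and 4 exceeded every tip for 7, and replicate 3 for 3. These markers were picked from gene lists chosen with earlier results of these data known. The groups did not overlap for 9 of 15 genes in the whole tip and Ret response list, and for 12.4% of all genes. The part of these array measures in the results was not tested. Tip replicate 3 and S-shaped body replicate 2 were the only pair across the groups with the same date in the title.

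Of the 15709 genes, 252 (1.6%) were called, 128 (0.815%) higher in the tip and 124 (0.789%) higher in the S-shaped body. Without S-shaped body replicate 3 the calls numbered 189 (1.2%), with 100 (0.637%) higher in the tip and 89 (0.567%) higher in the S-shaped body. The 2 sets shared 149 genes in the same direction, which was 59.1% of the first set and 78.8% of the second, and no gene was called in opposite directions. The groups did not overlap for 1948 genes (12.4%) with all 7 arrays and for 3019 genes (19.2%) without replicate 3. Among the called genes, 69 of those higher in the tip and 59 of those higher in the S-shaped body differed by 3 log2 units or more. The median over all genes was -0.1 with all arrays and -0.13 without replicate 3. The count also depended on single tips: it was 107 without tip replicate 1, 83 without tip replicate 2 and 141 without tip replicate 3. With median scaling in place of quantile normalization, 95 genes were called higher in the tip and 302 higher in the S-shaped body, and the median over all genes moved to -0.42. With the title date as a term in the fit no gene was called by limma and 499 had an unadjusted p under 0.05, against 1867 in the fit without it. That fit took only arrays with a date in the title. It had 8 residual degrees of freedom against 28, and a median SE of 0.89 against 0.55. None of the 252 called genes changed sign in it. In the pair of arrays with the same title date, all 252 called genes differed in the direction of their call, but both arrays had entered the calls.

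**Figure D1:**
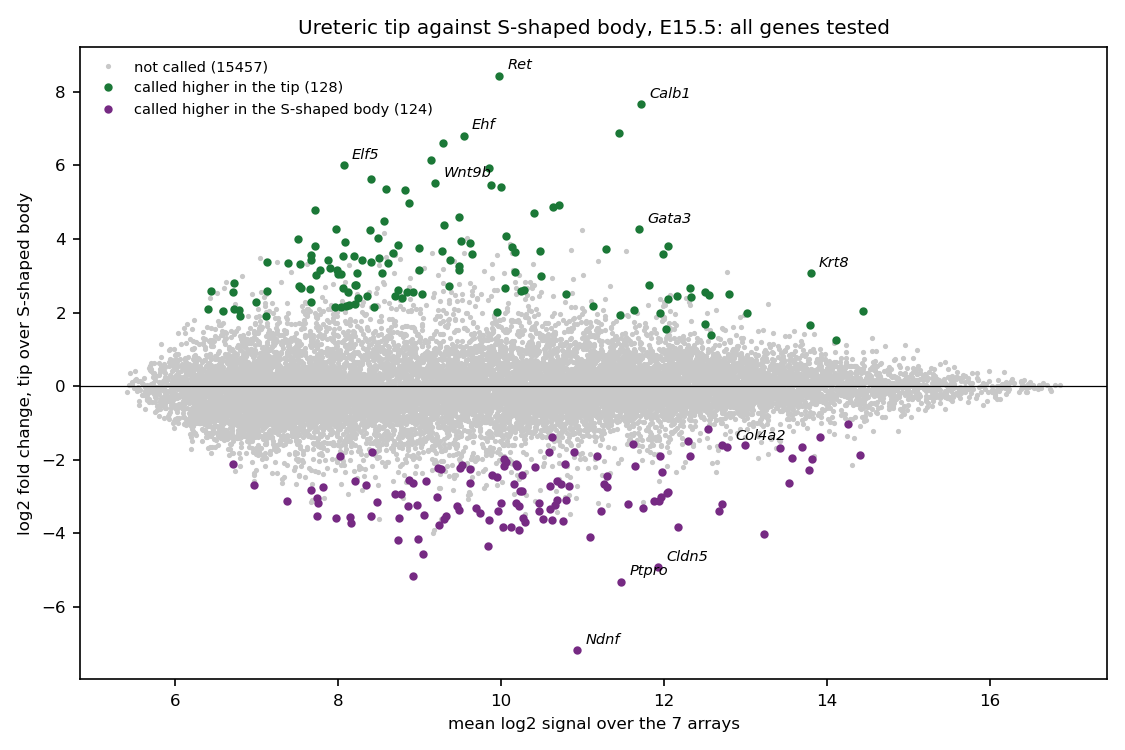
Log2 fold change of the tip over the S-shaped body (vertical axis) against the mean log2 signal over the 7 arrays (horizontal axis) for the 15709 genes tested, with called genes in colour. The 128 genes called higher in the tip reach up to Ret at 8.44, and the 124 called higher in the S-shaped body reach down to Ndnf at -7.18.

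Genes of the tip itself and of the Ret response were led by Ret and Slco4c1. Of 16 listed genes 15 were measured, 3 were called higher in the tip and none lower, and the list's median was 1.59 against -0.1 over all genes. Over all genes 0.815% were called higher in the tip and 0.789% in the S-shaped body, the shares to set beside each list's count below. Without S-shaped body replicate 3 the same count of 3 was called and the median was 1.25. Ret, the receptor tyrosine kinase that answers Gdnf, read 15, 14.98 and 14.42 in the tips and 6.6, 5.36, 6.82 and 6.65 in the S-shaped bodies. The tips lay far above every S-shaped body, which were close to the floor. The log2 fold change was 8.44 (SE 1.51, limma adjusted p = 0.000997) and 8.6 without replicate 3 (limma adjusted p = 0.00263). Slco4c1, an organic anion transporter known as a marker of ureteric tips, read 12.93, 13.53 and 12.74 in the tips against 5.34, 7.23, 6.67 and 6.55, with no overlap. Its log2 fold change was 6.62 (SE 1.14, limma adjusted p = 0.000669), and 6.69 without replicate 3. The calls of Ret and Slco4c1 were kept without each of the 7 arrays in turn.

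Wnt11, a ligand made at the tip and a target of Ret signalling, read 10.8, 12 and 12.39 in the tips against 7.84, 9.41, 10.04 and 9.22. The groups did not overlap, and the log2 fold change was 2.6 (SE 0.6, limma adjusted p = 0.0145). That call was lost without S-shaped body replicate 1 (limma adjusted p = 0.0706), tip replicate 2 (0.105) or tip replicate 3 (0.11). Gfra1, the co-receptor that binds Gdnf beside Ret, was expressed in both structures. It read 14.56, 14.91 and 14.18 in the tips against 13.42, 11.82, 8.34 and 12.2, a log2 fold change of 3.11 (limma adjusted p = 0.0837) that fell to 2.07 without replicate 3 and passed the test only without S-shaped body replicate 1 (limma adjusted p = 0.0394). Both other Gfra1 probe sets were called higher in the tip: one read 13.28, 14.47 and 13.47 against 10.09, 10.75, 5.72 and 10.08, with a log2 fold change of 4.58 and 3.43 without replicate 3 (limma adjusted p = 0.00738 and 0.0436), and the weaker one had 2.63 and 2.43 (0.0127 and 0.0473). Spry1, an inhibitor of Ret signalling, read 12.69, 12.85 and 13.05 against 11.8, 11.56, 11.02 and 11.49. Its groups did not overlap, but the fold change of 1.4 did not pass the test (limma adjusted p = 0.0745).

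The transcription factors downstream of Ret were not called. Etv5 read 12.83, 13.85 and 13.25 in the tips, and 12.39, 12.79 and 13.08 in S-shaped bodies 1, 2 and 4 against 5.48 in replicate 3. The log2 fold change of Etv5 was 2.37 with replicate 3 and 0.55 without it, so most of that value came from 1 array. Myb showed the same split, with 12.92 to 13.02 in the tips, 12.33 to 12.99 in the same 3 S-shaped bodies and 7.44 in replicate 3. Etv4 (1.78), Sox9 (1.9) and Sox8 (1.44) were also positive and missed the test (limma adjusted p = 0.388, 0.332 and 0.443). Without replicate 3 they had 1.3, 1.04 and 1.43. Dusp6, a phosphatase that damps the Erk pathway, read 14.14 to 14.85 in the tips and 13.48 to 14.53 in the S-shaped bodies, with a fold change of 0.47. Spry2 (0.62), Mmp14 (0.62), Cxcr4 (0.85) and Tmem59l (0.88) had fold changes under 1, though Cxcr4 had 1.39 without replicate 3 and no call.

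Of 10 Wnt ligands measured, Wnt9b and Wnt11 were called higher in the tip and none in the S-shaped body, with and without replicate 3, and the median was 0.47. Wnt9b, the ureteric signal that induces the nephron, read 11.47, 12.91 and 12.65 in the tips against 7.16, 6.7, 7.02 and 6.42. That is a log2 fold change of 5.52 (SE 0.68, limma adjusted p = 3.61e-06), kept without each of the 7 arrays. A second Wnt9b probe set did not show it, with -0.76 and no call. Wnt4, the nephron's own ligand for the change from mesenchyme to epithelium, read 10.54, 11.63 and 12.08 in the tips and 12.42, 13.89, 9.16 and 13.53 in the S-shaped bodies. It lay below all tips in replicate 3 and above all tips in the other S-shaped bodies, and its fold change was -0.83 with and -1.86 without that array (limma adjusted p = 0.801 and 0.472). Wnt5a (2.14), Wnt6 (1.6), Wnt7b (0.65), Wnt16 (0.28), Wnt10a (0.25), Wnt2b (-0.64) and Wnt5b (-1.27) were not called. Wnt5a, Wnt6 and the duct ligand Wnt7b read more in each tip than in any S-shaped body, but by little. The lowest tip and highest S-shaped body were 11.95 and 11.67, 8.45 and 8.43, and 9.99 and 9.89. Wnt2b and Wnt5b read more in each S-shaped body than in any tip, with 7.05 against 6.94 and 11.11 against 10.61 at the closest. In all, 7 of the 10 ligands did not overlap, against 12.4% of all genes.

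Transcription regulators of the duct held several of the largest differences. Of 18 measured, 5 were called higher in the tip and none in the S-shaped body, and 3 without replicate 3, with medians of 1.25 and 1.31. Elf5, an Ets factor of branching and secretory epithelia, read 11.59, 11.65 and 11.24 in the tips against 5.61, 5.37, 5.33 and 5.68. All S-shaped bodies were at the floor, and the log2 fold change was 6 (SE 0.67, limma adjusted p = 1.1e-06). Ehf, an epithelial factor of the same family, read 13.65, 13.65 and 13.01 against 5.33, 7.7, 8.01 and 5.44, a log2 fold change of 6.81 (SE 0.93, limma adjusted p = 2.6e-05). The calls of Elf5 and Ehf were kept without each array.

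Gata3, which holds Ret expression in the duct lineage, read 13.61, 14.55 and 14.25 in the tips and 9.39, 9.99, 10.44 and 9.59 in the S-shaped bodies. The groups lay more than 3 log2 units apart, but the test was narrow: the log2 fold change of 4.28 had an SE of 1.12 (limma adjusted p = 0.0366), and leaving out any 1 of the 7 arrays ended the call (adjusted p = 0.0534 to 0.181), as did median scaling. That SE includes the spread within the other components, while the standard deviation was 0.48 in the tips and 0.46 in the S-shaped bodies. Tfap2a, a factor of surface and duct epithelium, read 11.84, 12.73 and 12.31 against 9.85, 9.4, 6.62 and 8.16, with a log2 fold change of 3.79 (limma adjusted p = 0.00878) and 3.16 without replicate 3 (0.0456). Its call was lost without tip replicate 2 (limma adjusted p = 0.0721). Klf5, also called, had a fold change of 2.75, and 2.39 without replicate 3. It lost its call without any 1 array but S-shaped body replicate 4 (limma adjusted p = 0.0506 to 0.149). Sall1, a zinc-finger factor used by nephron progenitors and their derivatives, was the highest expressed regulator not called, at 11.57 to 13 in the tips and 12.44 to 13.14 in the S-shaped bodies. Esrp1, a splicing regulator of epithelia picked after its values were seen, read 13.51 to 13.86 in the tips, 11.22 to 11.71 in S-shaped bodies 1, 2 and 4 and 5.26 in replicate 3. Its fold change was 3.68 with and 2.11 without that array.

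Products of ureteric epithelium followed with 6 of 19 called higher in the tip and none in the S-shaped body, a median of 1.86, and 5 of 19 with a median of 1.98 without replicate 3. Calb1, the calcium-binding protein calbindin of distal and duct epithelium, read 16.27, 16.38 and 15.65 in the tips and 8.01, 8.82, 7.77 and 9.1 in the S-shaped bodies. The tips were close to the top of the scale, and the log2 fold change was 7.67 (SE 1.53, limma adjusted p = 0.00374). Krt23, a keratin, read 10.66, 12.21 and 12.11 against 5.66, 7.36, 5.75 and 6.39, a log2 fold change of 5.37 (limma adjusted p = 0.000481). The calls of Calb1 and Krt23 were kept without each array. Krt8, which with Krt18 forms the simple-epithelium keratin pair, read 15.14, 15.86 and 15.69 against 12.25, 11.63, 14.45 and 11.58. Replicate 3 was the highest S-shaped body for Krt8, and the fold change was 3.08 with and 3.74 without it (limma adjusted p = 0.0292 and 0.00593). Each of the other 6 arrays was needed for the Krt8 call (adjusted p without one of them 0.0681 to 0.155), and it was lost under median scaling. Epcam, an adhesion molecule of all these epithelia, was the highest expressed member not called, at 15.25 to 15.41 in the tips, 14.81 to 14.99 in 3 S-shaped bodies and 12.34 in replicate 3.

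Junction and polarity genes had 3 of 22 called higher in the tip, none in the S-shaped body, and a median of 1.57, with 2 called and a median of 1.31 without replicate 3. Cldn8, a tight-junction claudin of the collecting duct, read 13.89, 12.71 and 11.37 in the tips against 5.82, 6.37, 5.32 and 8.54. Tips and S-shaped bodies did not overlap, and the log2 fold change was 6.14 (SE 0.96, limma adjusted p = 0.000243), kept without each array. Marveld3, a tight-junction protein, read 11.04, 10.47 and 11.3 against 8.68, 5.94, 7.39 and 6.32, with a log2 fold change of 3.85 (limma adjusted p = 0.0101). It was lost without tip replicate 1 (limma adjusted p = 0.0574) or tip replicate 3 (0.0572). Rab25, a small GTPase of apical recycling, had a fold change of 3.15, and 3.07 without replicate 3. Its call was lost without any 1 array but S-shaped body replicate 2 or tip replicate 1 (limma adjusted p = 0.0533 to 0.181). Spint2, a protease inhibitor and the highest expressed member not called, read 14.75 to 15.8 in the tips and 14.75 to 15.46 in the S-shaped bodies.

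**Figure D2:**
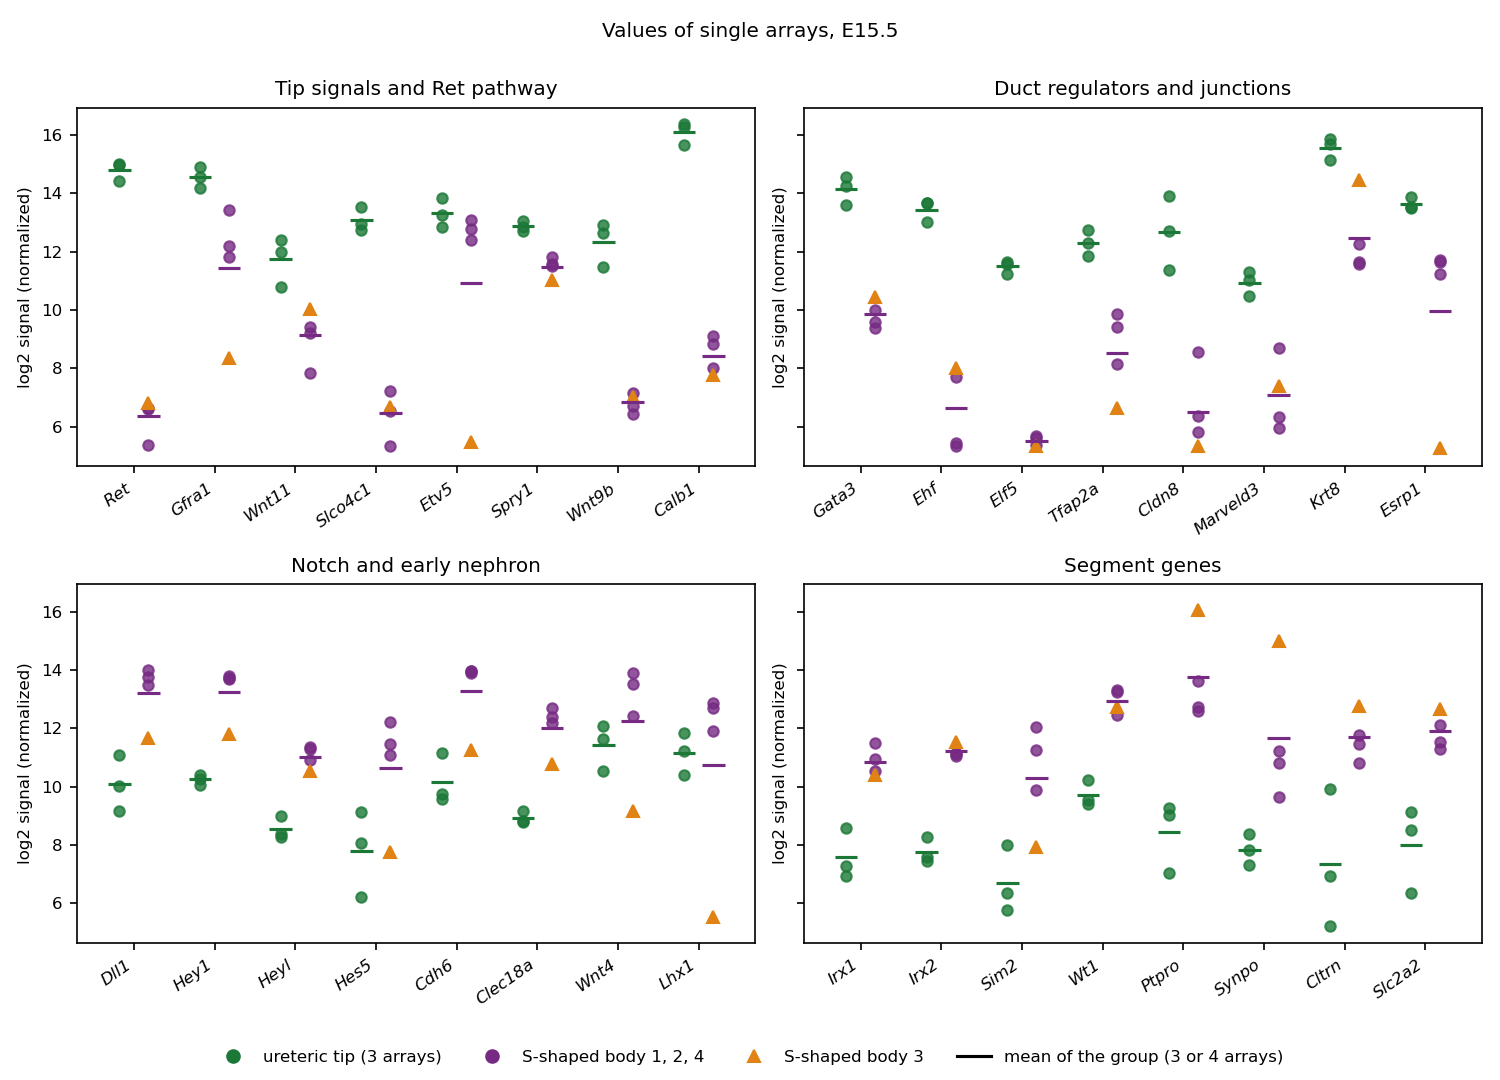
Log2 signal of single arrays (vertical axis) for 8 genes in each of 4 groups, with tips in green, S-shaped bodies 1, 2 and 4 in purple, S-shaped body 3 as an orange triangle and the mean of each group as a line. Ret, Elf5 and Calb1 separate all tips from all S-shaped bodies, while Etv5, Esrp1, Wnt4 and Lhx1 fall in S-shaped body 3 to 5.48, 5.26, 9.16 and 5.51, below every other array.

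In the opposite direction, genes of the early nephron epithelium gave 3 calls of 15 in the S-shaped body and none in the tip, both with and without replicate 3. The median moved from -0.71 to -1.79 when replicate 3 was left out, and that array had the lowest value of the 4 for 14 of the 15 genes, against 5415 of the 15709 genes tested. Cdh6, the cadherin of early proximal nephron, read 11.16, 9.58 and 9.73 in the tips against 13.96, 13.96, 11.25 and 13.91. All S-shaped bodies were above all tips, though replicate 3 only just, and the log2 fold change was -3.12 (SE 0.77, limma adjusted p = 0.0273) or -3.79 without it (0.00495). Clec18a, a lectin, read 9.16, 8.83 and 8.77 against 12.19, 12.7, 10.76 and 12.39, a log2 fold change of -3.09 (limma adjusted p = 0.0283). Osr2, a zinc-finger factor, read 5.28, 5.23 and 5.99 in the tips, at the floor, against 7.1, 8.4, 7.03 and 7.95, a fold change of -2.12 (limma adjusted p = 0.0265). Most of the other 6 arrays were needed for these calls. The call of Cdh6 was lost without any of them but tip replicate 1 (limma adjusted p = 0.0626 to 0.18), that of Clec18a without any of them (0.0631 to 0.132), and that of Osr2 without tip replicates 1 or 2 or S-shaped body replicates 2 or 4 (0.0697 to 0.155).

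Several factors that define early nephrons were not called. Lhx1, a LIM homeobox factor needed in the vesicle and also made in the ureteric bud, read 11.84, 11.21 and 10.4 in the tips, 11.9, 12.68 and 12.86 in S-shaped bodies 1, 2 and 4 and 5.51 in replicate 3. The fold change of Lhx1 changed sign, from 0.41 to -1.33, when replicate 3 was left out (limma adjusted p = 0.949 and 0.842). Dkk1, a secreted Wnt inhibitor, read 10.68, 9.29 and 10.5 against 12.32, 12.81, 5.33 and 13.03, with -0.71 and -2.56. Pax8, a paired-box factor of both lineages, read 9.49, 10.6 and 10.12 against 11.73, 12.06, 9.43 and 11.78, with -1.18 and -1.79 (limma adjusted p = 0.369 and 0.0807). For Dkk1 and Pax8 the same 3 S-shaped bodies were above all tips. Papss2, an enzyme of sulfate donor synthesis, missed the test on its brightest probe set (-2.36), while another was called higher in the S-shaped body with and without replicate 3 (log2 fold change -2.68 and -2.63, limma adjusted p = 0.0135 and 0.0335). Fgf8 (-1.2), Npy (-0.62), Ccnd1 (-0.18), Ano1 (-0.07), Bmp2 (0.04), Tmem100 (1) and Cxcl14 (1.29) were not called. Pou3f3, a factor of the loop and distal nephron, read 14.21 to 14.64 in the tips and 13.08 to 14.51 in the S-shaped bodies, and the groups overlapped.

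Among Notch pathway genes the ligand Dll1 and the targets Hey1 and Heyl were higher in the S-shaped body. Of 18 measured, 4 were called higher there and none in the tip, also without replicate 3, and the median was -1.2 with and -1.28 without it. Notch receptors are cut after binding a ligand on a neighbouring cell, and the freed part joins the DNA-binding protein Rbpj to switch on Hes and Hey genes, whose products are repressors. Dll1 read 9.16, 10.02 and 11.08 in the tips and 14, 13.75, 11.66 and 13.49 in the S-shaped bodies, without overlap. The log2 fold change was -3.13 (SE 0.75, limma adjusted p = 0.0213) and -3.66 without replicate 3 (0.00727). Without S-shaped body replicates 1 or 4 or tip replicates 1 or 2 its adjusted p was 0.0701, 0.0512, 0.16 and 0.105. Dll4, a ligand made mostly by endothelium, read 6.85, 7.48 and 7.86 against 8.91, 8.81, 10.66 and 8.36. It was highest in replicate 3, with a log2 fold change of -1.79 and -1.3 without that array (limma adjusted p = 0.0439 and 0.23), and its call was also lost without S-shaped body replicate 1 or any of the tips (0.0634 to 0.255). Jag1, the third ligand with a role in the S-shaped body, read 14.31 to 14.39 in the tips, 15.03 to 15.25 in S-shaped bodies 1, 2 and 4 and 12.96 in replicate 3, with -0.27 and -0.82 and no call.

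Hey1, a target repressor, read 10.27, 10.07 and 10.39 in the tips and 13.74, 13.8, 11.79 and 13.7 in the S-shaped bodies. The log2 fold change was -3.01 (SE 0.64, limma adjusted p = 0.00735), or -3.5 without replicate 3 (0.00207), and it was lost only without tip replicate 2 (0.0523). Heyl read 8.37, 8.26 and 9 against 11.28, 11.36, 10.52 and 10.9, a fold change of -2.48 (limma adjusted p = 0.029) that held without replicate 3 (0.0342) and was lost without any other of the arrays (0.0513 to 0.158). Hes5, a target and marker of the middle of the S-shaped body, read 6.21, 8.06 and 9.12 against 11.07, 12.21, 7.76 and 11.47. Replicate 3 lay among the tips for Hes5, and this probe set was called only without it (log2 fold change -2.83 and -3.79, limma adjusted p = 0.118 and 0.0152). Another Hes5 probe set read 6.28, 6.36 and 8.1 against 13.7, 13.5, 7.9 and 13.76, with replicate 3 again among the tips. It was called with and without that array (log2 fold change -5.3 and -6.74, limma adjusted p = 0.0135 and 0.000611). Notch1 read 11.93, 12.13 and 11.99 against 13.7, 13.43, 13 and 13.53, a separation of the groups with a fold change of -1.4 that missed the test (limma adjusted p = 0.0685). Notch2 (-0.48), Notch3 (0.12) and Notch4 (-1.52), the glycosyltransferases Mfng (-1.78), Lfng (-1.21) and Rfng (0.06), the ligands Jag2 (-0.75) and Dll3 (0.35), and the targets Hey2 (-1.2), Nrarp (-0.87) and Hes1 (0.15) were not called.

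The promoters of the Notch list were searched for the core of the Rbpj motif, GTGGGAA on either strand, whose reverse complement is TTCCCAC. Windows of 300 bases, from 250 before the gene's start to 50 after, came from RefSeq on GRCm38.p6. There were 15 windows for 14 of the 18 genes. The called targets Hey1 and Heyl had no window, so their promoters were not searched. Of the 15 windows 3, of 3 genes, held the motif, against 2097 of all 32851 windows (6.38%). Among windows of genes called higher in the S-shaped body 6.19% held it, and among those higher in the tip 3.85%. The 3 stretches are shown since they belong to 2 target repressors and 1 modifier of the receptors, of which Hes5 alone was called, on one probe set with all arrays and on both without replicate 3. Capitals mark the motif, at 226 and 83 bases before the start in Hes5, at 207 and 4 before it in Hey2 and at 109 before it in Lfng. Each is the first 260 bases of its window, 5′ to 3′ on the gene's strand: Hes5 at chr4:154960673-154960932 on the plus strand, Hey2 at chr10:30842774-30843033 on the minus strand and Lfng at chr5:140607091-140607350 on the plus strand. A match describes these letters and is not a site of binding.
Hes5: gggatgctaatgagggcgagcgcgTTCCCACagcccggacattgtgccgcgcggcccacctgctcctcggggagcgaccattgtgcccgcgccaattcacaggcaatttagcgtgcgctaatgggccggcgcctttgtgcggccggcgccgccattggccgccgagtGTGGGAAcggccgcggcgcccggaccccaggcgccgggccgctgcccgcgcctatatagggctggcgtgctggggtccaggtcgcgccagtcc
Hey2: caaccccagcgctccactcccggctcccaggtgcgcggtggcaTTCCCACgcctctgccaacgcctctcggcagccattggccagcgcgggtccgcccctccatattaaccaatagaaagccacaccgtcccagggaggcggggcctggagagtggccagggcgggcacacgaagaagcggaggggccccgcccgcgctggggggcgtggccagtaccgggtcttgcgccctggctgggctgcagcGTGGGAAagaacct
Lfng: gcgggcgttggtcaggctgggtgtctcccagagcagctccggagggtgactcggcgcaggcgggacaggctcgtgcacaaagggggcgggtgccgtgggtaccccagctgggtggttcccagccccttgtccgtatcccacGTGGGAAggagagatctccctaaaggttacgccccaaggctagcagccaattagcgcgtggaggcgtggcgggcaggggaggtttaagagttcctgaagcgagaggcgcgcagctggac

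Podocyte genes were higher in the S-shaped body for 6 of 16 measured, against 0.789% of all genes, with none higher in the tip and a median of -2.28. Without replicate 3 the count was 3 and the median -1.7. Wt1, the zinc-finger factor of podocyte precursors, read 10.22, 9.41 and 9.55 in the tips and 13.32, 12.46, 12.74 and 13.23 in the S-shaped bodies. Replicate 3 lay within the range of its group, and the log2 fold change was -3.21 (SE 0.56, limma adjusted p = 0.000703) and -3.28 without it. Ptpro, a receptor phosphatase of podocyte foot processes, read 9.01, 7.05 and 9.25 against 13.62, 12.58, 16.06 and 12.73. It was highest in replicate 3, but the log2 fold change of -5.31 (limma adjusted p = 0.000543) was still -4.54 without it (0.00363), and the calls of Wt1 and Ptpro were kept without each array. Foxc2, a forkhead factor of the glomerulus called with and without replicate 3, had a fold change of -2.72 and lost its call without tip replicate 1 (limma adjusted p = 0.079).

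The calls of Synpo, Podxl and Tcf21 were lost without replicate 3 and without single tips. Tcf21 went from -2.32 (limma adjusted p = 0.029) to -1.91 (0.132) without replicate 3. It also lost the call without tip replicate 1 (0.153) or tip replicate 2 (0.235). Synpo, the actin-binding synaptopodin, read 8.36, 7.32 and 7.82 in the tips, 10.8, 9.65 and 11.21 in S-shaped bodies 1, 2 and 4 and 14.99 in replicate 3. All 4 S-shaped bodies exceeded the tips, but the log2 fold change went from -3.83 (limma adjusted p = 0.0311) to -2.72 (0.181), and the call was also lost without any of the tips (0.077 to 0.18). Podxl, the sialomucin of the podocyte surface, read 11.04, 9.52 and 11.65 against 13.88, 12.93, 16.41 and 13.26, with -3.38 and -2.62 (limma adjusted p = 0.0241 and 0.129), and its call was also lost without tip replicate 1 (0.0716) or tip replicate 2 (0.234). Nphs1, the slit-diaphragm protein nephrin, was named after its values were seen. It read 6.95, 5.86 and 6.96 in the tips, 7.64 to 7.69 in the same 3 S-shaped bodies and 12.27 in replicate 3, a fold change of -2.23 with it and -1.08 without it, with no call. Cdkn1c, a cell-cycle inhibitor and the highest expressed member not called, read 13.34 to 14.73 in the tips and 13.99 to 14.47 in 3 S-shaped bodies against 16.58 in replicate 3. Of the 16 podocyte genes 11 were highest in replicate 3 among the S-shaped bodies, against 5132 of all 15709 genes.

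Proximal tubule genes gave 3 calls of 18 in the S-shaped body and none in the tip, with a median of -1.47, and 1 call with a median of -1.06 without replicate 3. Cltrn, the collectrin of the proximal brush border, read 9.91, 6.95 and 5.21 in the tips against 11.47, 10.81, 12.75 and 11.78. The tips were spread over more than 4 log2 units and still lay below every S-shaped body, and the log2 fold change was -4.34 (SE 0.84, limma adjusted p = 0.00276) or -3.99 without replicate 3 (0.0125). It was lost without tip replicate 3 (limma adjusted p = 0.0659). Slc2a2, a glucose transporter, read 9.12, 8.5 and 6.35 against 11.54, 11.3, 12.65 and 12.11, with -3.91 and, without replicate 3, -3.66 (limma adjusted p = 0.0361 and 0.107). Its call was lost without any 1 array but S-shaped body replicate 2 (limma adjusted p = 0.0574 to 0.241). Slc22a6, an organic anion transporter, read 5.87, 5.81 and 7.06 against 7.53, 8.17, 10.92 and 9.34 with -2.74 and -2.1 (limma adjusted p = 0.0393 and 0.205), and it lost the call too without S-shaped body replicate 4 or any of the tips (0.0532 to 0.218). Hnf4a, the nuclear receptor that directs the proximal fate, was the highest expressed member not called, at 10.06, 8.48 and 9.6 against 11.98, 12.28, 13.53 and 12.39. Its groups did not overlap and the fold change was -3.17 (limma adjusted p = 0.074). A weaker Hnf4a probe set was called with all arrays and not without replicate 3 (log2 fold change -1.89 and -1.56, limma adjusted p = 0.0477 and 0.202). Genes of the mature proximal tubule, named after their values were seen, set replicate 3 apart: Lrp2 read 13.97 there against 8.95 to 10.17 in its group, and Cubn 13.7 against 5.78 to 7.79. Replicate 3 was the highest of the 4 for 16 of the 18 genes.

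The loop and distal list gave 3 calls of 13 in the S-shaped body and none in the tip with a median of -1.81, and 4 calls with a median of -1.26 without replicate 3. Irx1, an Iroquois factor of the intermediate nephron segment, read 8.57, 7.29 and 6.93 in the tips, 10.55, 10.39 and 10.95 in S-shaped bodies 2 to 4 and still more in the first, without overlap. The log2 fold change was -3.25 (SE 0.66, limma adjusted p = 0.00459), and the call was kept without each array. Irx2, its neighbour in the family, read 8.27, 7.46 and 7.57 against 11.04, 11.16, 11.53 and 11.13, a tight group that included replicate 3, with a log2 fold change of -3.45 (limma adjusted p = 0.00642). It was lost without tip replicate 2 (limma adjusted p = 0.0523). Sim2, a basic helix-loop-helix factor, read 7.99, 6.36 and 5.75 against 12.05, 9.88, 7.94 and 11.27, and replicate 3 lay just below the highest tip. The log2 fold change was -3.59 (limma adjusted p = 0.0204) and -4.37 without that array (0.00323), with the call lost without S-shaped body replicates 1 or 4 (0.0904 and 0.0685) or tip replicates 2 or 3 (0.124 and 0.132). Slc12a1, the transporter of the mature loop, was named after its values were seen and read 14.61 in replicate 3 against 5.52 to 11.09 in its group. Irx1, Irx2 and Hes5 mark the middle of the S-shaped body, and replicate 3 read 10.39 and 11.53 for the first 2 and 7.76 for Hes5.

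**Figure D3:**
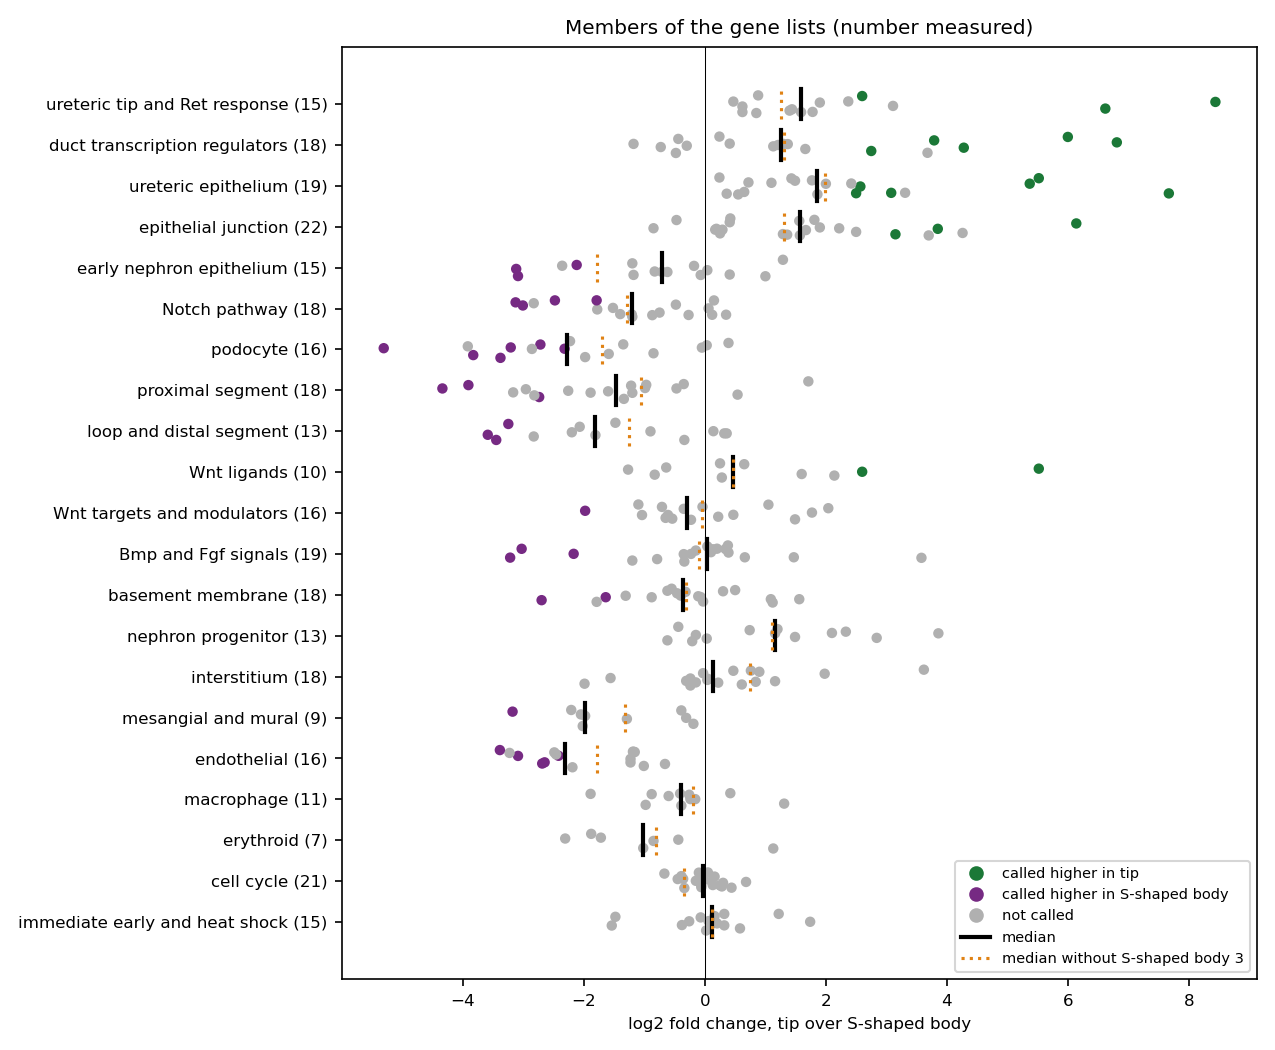
Log2 fold change of the tip over the S-shaped body for each measured member of the 21 gene lists (points, with a fixed vertical scatter), called members in colour, with the list's median as a black line and the median without S-shaped body 3 as a dotted line. The 4 ureteric lists have medians from 1.25 to 1.86, and the podocyte and endothelial lists have medians of -2.28 and -2.3.

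Growth factor and matrix lists were mixed. Of 19 Bmp and Fgf genes 3 were called higher in the S-shaped body and none in the tip, and 2 without replicate 3. The median was 0.04 and turned negative under several settings, replicate 3 left out (-0.09) and median scaling (-0.39) among them. Bmp4, a ligand that limits budding, read 8.38, 8.3 and 9.79 in the tips against 12.41, 11.97, 12.25 and 11.51, with a log2 fold change of -3.22 (SE 0.56, limma adjusted p = 0.000669) kept without each array. Bmp6 read 6.24, 5.57 and 6.21, near the floor, against 8.74, 9.32, 9.18 and 8.92, a narrow range in both groups. Its log2 fold change was -3.03 (limma adjusted p = 0.0219), -2.98 without replicate 3 (0.049), and the call was lost without any of the tips (0.0608 to 0.149). Fgfr3, a receptor, had -2.17, and -2.26 without replicate 3. Its call was lost without any 1 array but tip replicate 1 (limma adjusted p = 0.0529 to 0.207). Fgfrl1, the decoy-like receptor needed for nephron formation, was the highest expressed member not called, at 13.19 to 13.91 against 12.04 to 14.05.

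Of 18 basement membrane genes 2 were called, both higher in the S-shaped body and both also without replicate 3. The median was -0.36. Col4a2, a chain of the common type IV collagen, read 11.55, 11.98 and 11.97 against 13.37, 13.25, 14.01 and 13.27, a log2 fold change of -1.64 (SE 0.31, limma adjusted p = 0.00185) kept without each array. Its partner chain Col4a1 had -0.62 and was not called. Nid2, a linker of laminin and collagen, read 10.11, 8.33 and 8.75 against 11.43, 11.83, 12.22 and 11.57, with a log2 fold change of -2.7 (limma adjusted p = 0.00232) lost without tip replicate 2 (0.0506). Lamb1, a laminin chain, read 15.06 to 15.21 in the tips and 15.06 to 15.33 in the S-shaped bodies. Of 16 Wnt targets and modulators, the receptor Lgr4 alone was called, higher in the S-shaped body: it read 13.38, 12.59 and 12.09 against 14.86, 14.16, 14.83 and 14.81 (log2 fold change -1.98, limma adjusted p = 0.013), and lost the call without tip replicate 2 (0.0818) or tip replicate 3 (0.114). The general Wnt response gene Axin2 was not called (1.49).

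Markers of other cells moved with these results. Of 16 endothelial genes 5 were called higher in the S-shaped body with a median of -2.3, and 1 with a median of -1.79 without replicate 3. The mean log2 level of the list was 8.43 to 9.18 in the tips, 10.32 to 10.8 in S-shaped bodies 1, 2 and 4 and 11.9 in replicate 3. Sox18, an endothelial factor, read 7.45, 7.81 and 8.82 against 10.92, 11.24, 11.76 and 11.74, with a log2 fold change of -3.39 (limma adjusted p = 0.00948) that held without replicate 3 (0.0262) and was lost without tip replicate 1 (0.0786) or tip replicate 2 (0.0689). Kdr, the Vegf receptor, read 10.2, 8.79 and 8.13 against 10.77, 12.31, 13.28 and 12.14, and Cdh5, the endothelial cadherin, 9.05, 7.88 and 9.03 against 11.1, 10.44, 12.92 and 10.74. Both were called, with -3.09 and -2.65, and had -2.7 and -2.11 without replicate 3 (limma adjusted p = 0.16 and 0.121). Each tip was also needed for the calls of Kdr (limma adjusted p = 0.0541 to 0.222) and Cdh5 (0.0537 to 0.206), and S-shaped body replicates 2 (0.0714) and 4 (0.0831) for that of Kdr. Tie1 was at the floor in all tips, at 5.32 to 5.54, and 6.8 to 9.38 in the S-shaped bodies. Of 9 mesangial and mural genes only Mcam was called, at 8.34, 7.96 and 8.81 against 12.14, 10.49, 12.32 and 11.22 (log2 fold change -3.18, limma adjusted p = 0.00135), kept without each array. The mean level of that list was 8 to 9.06 in the tips and 9.27 to 11.3 in the S-shaped bodies, highest in replicate 3. The part of endothelial and mural cells in the podocyte, Dll4, Bmp and collagen results was not tested.

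Markers of the mesenchyme around the tip gave no calls. No nephron progenitor gene of 13 was called, and the median was 1.16. Their mean log2 level was 9.16 to 9.55 in the tips and 7.89 to 8.57 in the S-shaped bodies. Eya1, a progenitor factor named after its values were seen, read 12.3, 12.44 and 12.21 in the tips and 7.73, 9.53, 8.7 and 7.88 in the S-shaped bodies, with no overlap and a log2 fold change of 3.86 (limma adjusted p = 0.0549). It passed the test without S-shaped body replicate 2 (limma adjusted p = 0.0454). Six2 read 9.59 to 9.91 against 8.28 to 8.84. Itga8, an integrin of progenitors and mesangium and the highest expressed member not called, read 12.18 to 12.58 against 11.8 to 14.01. Of 18 interstitial genes none was called. Their mean level ranged from 10.04 to 12.06 in the tips, and was 9.98 to 10.24 in S-shaped bodies 1, 2 and 4 and 12.43 in replicate 3. The part of progenitor or interstitial cells in the tip results was not tested, and the highest expressed of the latter list, Col3a1, read 14.19 to 15.99 against 14.49 to 16.28.

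None of 11 macrophage, 7 erythroid, 21 cell cycle or 15 immediate early and heat shock genes was called. The 21 cell cycle genes had a median of -0.03, which changed sign with the arrays left out, and every one of them was lowest in replicate 3 among the S-shaped bodies: the mean log2 level of the list was 12.4 there, 13.42 to 13.91 in its 3 fellow arrays and 13.15 to 13.49 in the tips. Rrm2, a replication enzyme, read 15.53 to 15.94 in the tips and 15.08 to 15.9 in the S-shaped bodies. Csf1r, the macrophage receptor, read 14.33 in replicate 3, where its 3 fellow arrays had 8.1 to 10.88.

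**Figure D4:**
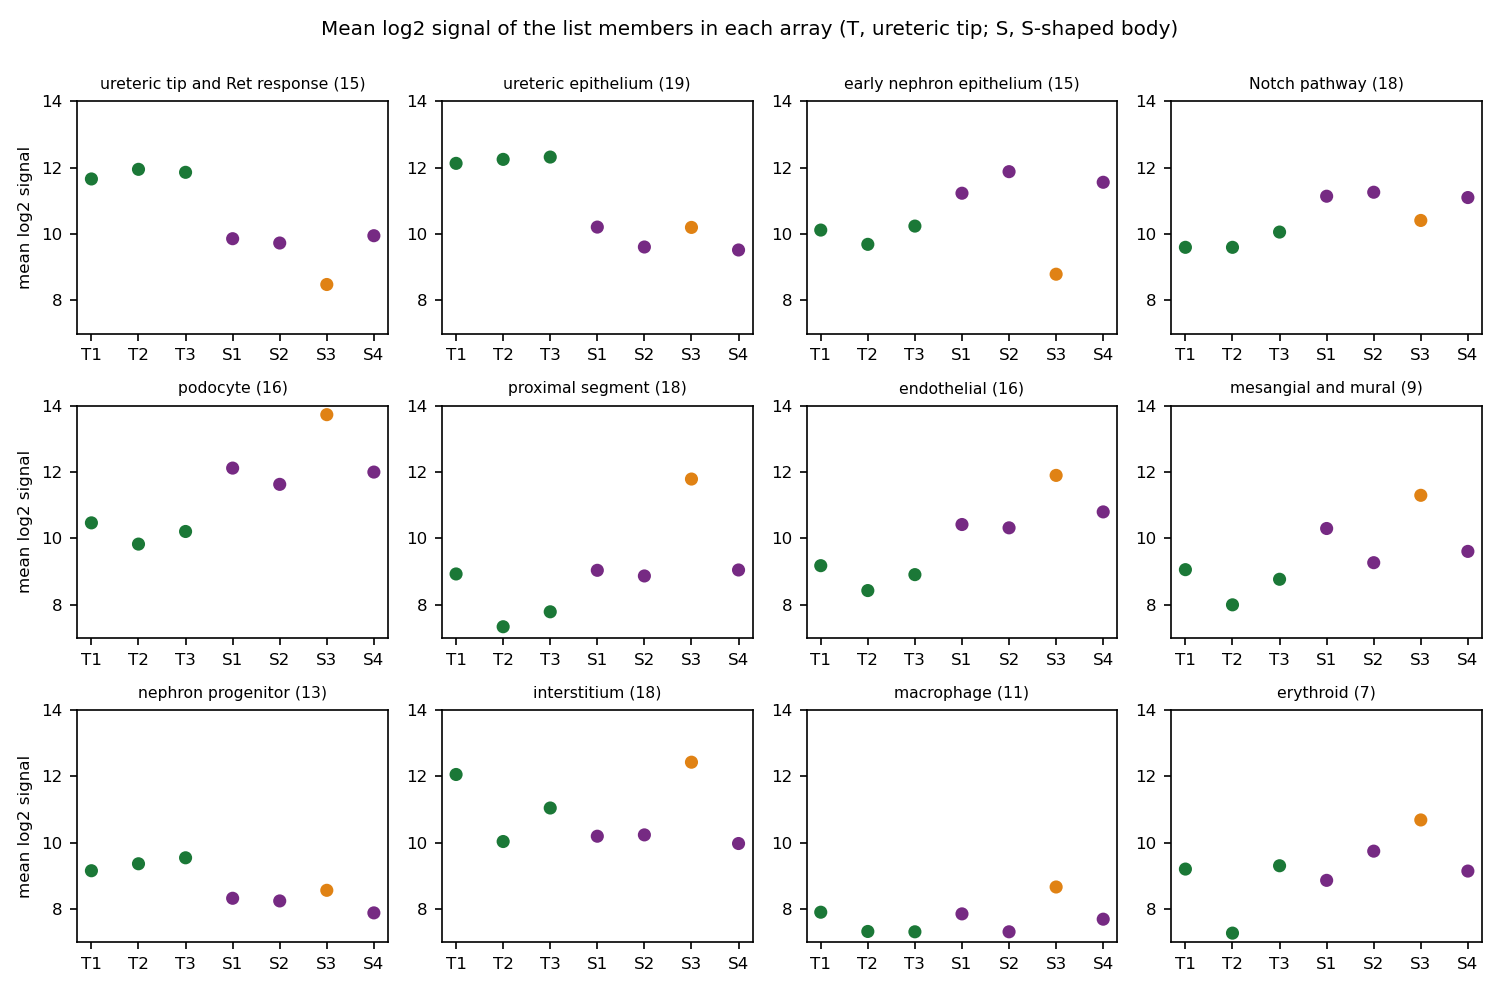
Mean log2 signal of the members of 12 gene lists (vertical axes) in each tip (T1 to T3, green) and S-shaped body (S1 to S4, purple, S3 in orange). S3 is the lowest S-shaped body for the early nephron list at 8.79 and the highest for the podocyte, proximal, endothelial and interstitial lists at 13.73, 11.79, 11.9 and 12.43.

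The largest differences took in genes outside the lists. Of the 12 largest in the tip whose arrays did not overlap, Ret, Calb1, Ehf, Slco4c1, Cldn8, Elf5 and Wnt9b are described above. Rprm, a cell-cycle inhibitor, read 15.05, 15.61 and 15.46 against 9.62, 9.74, 7.17 and 7.46, a log2 fold change of 6.88 (SE 1.07, limma adjusted p = 0.000243). Mal2, a protein of apical transport, read 13.68, 13.41 and 12.67 against 8.94, 6.27, 5.41 and 8.61 (5.94, limma adjusted p = 0.00325). Slc8a1, a sodium-calcium exchanger, read 13.48, 13.67 and 11.86 against 6.96, 8.7, 5.34 and 9.17 (5.46, limma adjusted p = 0.00285). With Calb1 it belongs to the calcium-handling genes of distal epithelium. Tmem30b, a subunit of lipid flippases, had a log2 fold change of 5.64 (limma adjusted p = 0.00207) and the noncoding Panct2 5.41 (0.000305). All 12 kept their calls without replicate 3, and these 5 did so without each of the 7 arrays.

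In the S-shaped body the largest difference of all was in Ndnf, a secreted factor. It read 6.84, 7.38 and 6.27 in the tips and 14.53, 14.19, 13.22 and 14.1 in the S-shaped bodies, a log2 fold change of -7.18 (SE 0.75, limma adjusted p = 3.54e-07). Replicate 3 was the lowest of its group and still far above the tips. Gja3, a gap-junction connexin, read 6.73, 5.26 and 5.95 against 10.56, 9.18, 13.3 and 11.45 (-5.15, limma adjusted p = 0.000243), and Ntn4, a netrin of basement membranes, 7.12, 6.39 and 5.79 against 10.67, 10.83, 11.44 and 11.07 (-4.57, limma adjusted p = 0.000988). Cldn5, a claudin of endothelium and podocytes, read 7.89, 8.85 and 10.61 against 13.85, 13.83, 14.97 and 13.52 (-4.92, limma adjusted p = 1.85e-06). Enpep, an aminopeptidase of the brush border and podocytes, had -4.02 (limma adjusted p = 0.000342), Esm1, an endothelial proteoglycan, -4.14 (0.00174), and Pcp4, a calmodulin regulator, -4.1 (0.000997). Those 7 genes kept their calls without each array. Second probe sets of Ndnf and Gja3 had log2 fold changes of only -1.28 and -0.87 and were not called (limma adjusted p = 0.465 and 0.643). The oxytocin receptor Oxtr (-3.84) lost its call without tip replicate 3 (limma adjusted p = 0.133). The lipocalin Apom (-4.18) lost it without replicate 3 (0.119), S-shaped body replicate 1 (0.0518), tip replicate 1 (0.146) or tip replicate 2 (0.115), and Slc2a2 is described above.

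Leaving out S-shaped body replicate 3 thus changed which genes were called, and no gene was called in opposite directions. Genes not called could change sign. Among those of the lists and the text, 13 did so by at least their SE, Lhx1 (0.41 to -1.33) and Cubn (-1.22 to 0.48) among them. Of the 252 calls 103 were lost, 47 higher in the tip and 56 higher in the S-shaped body, and 40 were gained, 19 and 21. Of the 48 called list members 15 lost the call without it, and 14 of the 48 were kept without each of the 7 arrays: Ret, Slco4c1, Ehf, Elf5, Calb1, Wnt9b, Krt23 and Cldn8 in the tip, and Wt1, Ptpro, Irx1, Bmp4, Col4a2 and Mcam in the S-shaped body. Over all genes 62 of the 252 calls were kept in that way, 37 higher in the tip and 25 higher in the S-shaped body. Where a called gene had other probe sets past the filter, which was so for 119 genes, all of them had the sign of the call in 106 genes and at least 1 was called the same way in 26. Among the named genes, Ehf, Lgr4, Marveld3 and Wnt9b had another probe set of the opposite sign (-1.07, 0.66, -0.33 and -0.76), none of them called. Conversely, of the 268 list members not called, 7 had another probe set that was: Gfra1, Hes5, Hnf4a and Papss2, given above, the claudin Cldn3 and the epithelial factor Grhl2, both higher in the tip, and Clic5, a podocyte protein higher in the S-shaped body. Those of Hnf4a, Cldn3 and Clic5 were not called without replicate 3.

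**Figure D5:**
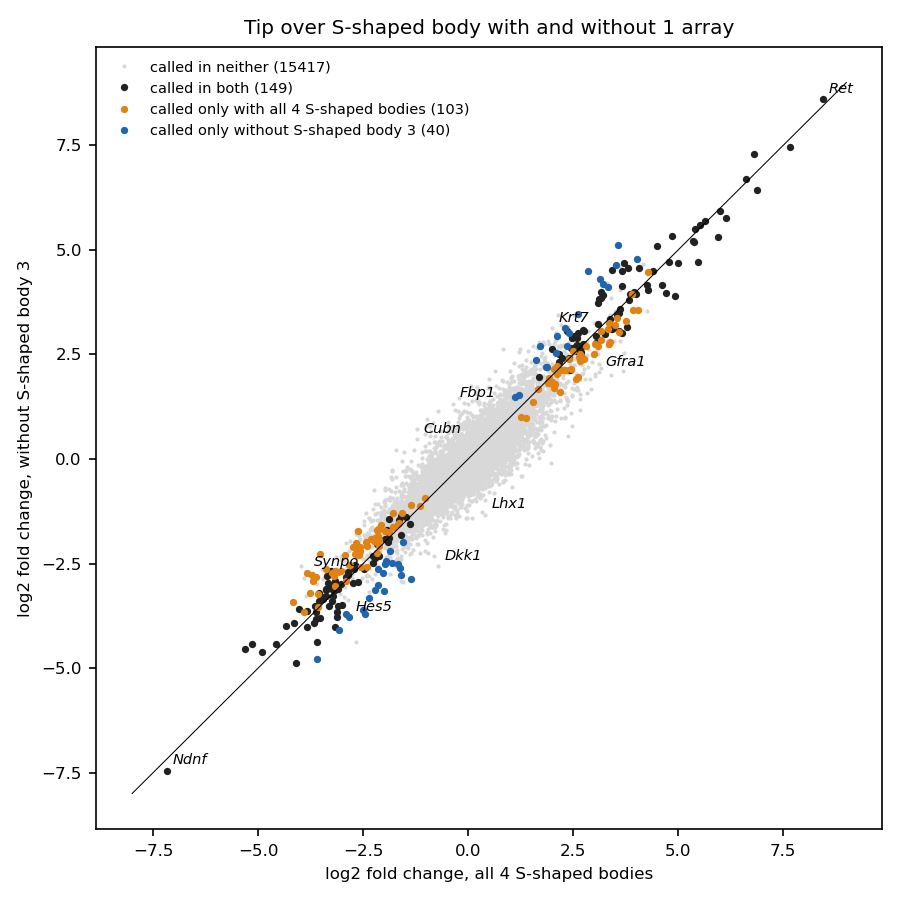
Log2 fold change with all 4 S-shaped bodies (horizontal axis) against that without S-shaped body 3 (vertical axis) for the 15709 genes, with the diagonal as a line. The 149 genes called in both lie near the diagonal, 103 were called only with all arrays and 40 only without replicate 3, and Lhx1 (0.41 and -1.33) and Dkk1 (-0.71 and -2.56) lie off it.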

How the data were processed

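RNA was measured on 1 Affymetrix array a sample, and the pools of the arrays compared were laser-captured. The titles of several metanephric mesenchyme and ureteric bud arrays name dissection or collagenase instead. Other metanephric mesenchyme titles bear the letters LCM, read here as laser capture. All of these arrays entered the fit. The part of the collection method in the SE and the limma p-values was not tested. The deposited table holds signal intensity on a linear scale, computed by the authors with Affymetrix GCOS, per the submitters' processing notes, whose version is not given in the sources used here. The 2% trimmed mean was 1500 in each array, so only a global scaling had been applied. Of 45101 probe sets, 34945 name a single gene through the platform annotation, and 34741 of these matched RefSeq by gene number. The others (932 with several genes, 9160 with none, 64 controls) were normalized with the rest and then left out.

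To each signal 34.62 was added (percentile 20 over the table), log2 taken and all 37 arrays quantile normalized. This offset understates the change of weak genes. Probe sets above the pooled median of 7.89 in at least 2 arrays were kept, and the one with the highest mean represented each gene, giving 15709 genes, 7497 of them with several probe sets. Limma 3.58.1 in R 4.3.3 fitted 1 mean for each of the 9 components to all 37 arrays, with an intensity trend (28 residual degrees of freedom), and p-values were adjusted over all genes, or over all probe sets past the filter where a second probe set is given. The script was tested on simulated data. Depth has no meaning for arrays: their number, 3 and 4, limits the precision.

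Groups came from the tissue named as the source. The comparison, its members, the 21 gene lists (344 genes, 316 measured) and the rule for named genes were chosen with earlier results of these data known. The rule took the 12 largest calls in each direction whose arrays did not overlap, up to 5 members of each list (the largest called and the highest expressed not called), and all measured members of the tip, Notch, early nephron and Wnt ligand lists. Lists are described by counts and medians and were not tested. Alternatives covered the offset, normalization, filter, probe set choice, array weights, the samples fitted, the title's date and number, the Actb ratio and each array left out. Promoter windows are RefSeq's.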

Additional observations from a re-analysis of the deposited data

Results flagged for a closer look

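Among the 4 S-shaped bodies, 20 of 141 named genes had 1 array far from the other 3, and in 15 of the 20 it was replicate 3. Chance flags about 1 in 20 independent groups. The share among named genes cannot be set against that rate. All genes share the same 4 arrays, and some, Esrp1 and Nphs1 among them, were named after their values were seen. Over all 15709 genes 1238 (7.88%) were so marked, 739 (59.7%) of them in replicate 3. That array was low for the epithelial and early nephron genes Cdh6 (11.25), Dkk1 (5.33), Lhx1 (5.51), Pax8 (9.43), Jag1 (12.96), Hey1 (11.79), Pou3f3 (13.08), Epcam (12.34), Esrp1 (5.26), Etv5 (5.48), Myb (7.44), Sox9 (5.83) and Fgfrl1 (12.04). It was high for Nphs1 (12.27) and Col4a2 (14.01). Replicate 2 was low for Ret (5.36), Lgr4 (14.16) and Wnt6 (6.95) and high for Tmem100 (8.77), and replicate 4 was low for Mmp14 (9.64). All values are normalized log2 signals.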

How the results depend on the processing

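No named gene that was called reversed its direction under any alternative tried, while the number of calls depended on the fit. Against 252 calls (128 in the tip, 124 in the S-shaped body), median scaling gave 397 (302 in the S-shaped body), array weights 1235 (489 and 746), a fit on the 7 arrays alone 120 (66 and 54) and a fit on the 20 arrays of E15.5 gave 92 (46 and 46). The title's date as a fixed term, fitted on the dated arrays alone with 8 residual degrees of freedom, gave 0 calls in either direction. The title's number as a replicate block gave 109 (65 and 44). Deviations of same-numbered arrays from their group means correlated at -0.036, -0.12 and 0.093. With so few arrays these values cannot decide whether equal title numbers mark paired samples, and the labels do not say. Leaving out 1 array gave 83 to 296 calls, 47 to 139 in the tip and 36 to 157 in the S-shaped body. Chosen after the data were seen, the fit on E15.5 less S-shaped body replicate 3 gave 75 (48 and 27), while the fit on the 7 arrays less replicate 3 gave 330 (182 and 148), against 120 with it, and leaving out renal corpuscle replicate 4 beside replicate 3 gave 235 (126 and 109). Of the gene list members, 48 were called, 114 with array weights, 24 in the fit on E15.5 (16 less replicate 3), 65 in that on the 7 arrays less replicate 3, 0 with the date, 27 with the replicate block and 18 to 41 without 1 array. The causes were not tested. Within the pair of arrays with the same title date, the medians were 1.48 for the tip and Ret list, 2.21 for ureteric epithelium, -1.81 for the early nephron, -1.09 for Notch and -1.31 for podocyte genes, and with the date as a term 1.43, 2.7, -1.67, -1.3 and -1.95. Offset, filter, probe set choice, a random date block and the Actb ratio left the number of calls within 1.5 times. Signals near the offset limit the fold changes of weak genes.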

Other observations

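Further genes outside the lists were picked from the calls after their values were seen, so they stand for themselves and not for a group. Scnn1g and Scnn1b, subunits of the epithelial sodium channel, and the vasopressin receptor Avpr2, known from principal cells of the mature collecting duct, were higher in the tip. Scnn1g read 12, 11.73 and 11.89 in the tips against 6.48, 7.52, 6.09 and 6.03 in the S-shaped bodies, a log2 fold change of 5.34 (SE 0.62, limma adjusted p = 1.85e-06). Scnn1b read 9.23, 9.66 and 10.43 against 8.14, 5.76, 5.94 and 7.1 (3.04, limma adjusted p = 0.00295), and Avpr2 10.44, 9.76 and 10.27 against 8.97, 7.32, 7.76 and 6.94 (2.41, limma adjusted p = 0.0107). In contrast Aqp2, the water channel that vasopressin regulates, read 7.22 to 8.98 in the tips and 7.61 to 8.4 in the S-shaped bodies and was not called (0.36). Shh, a hedgehog ligand best known from the medullary duct and ureter, read 12, 11.14 and 12.03 against 7.08, 6.66, 5.8 and 7.37 (4.99, limma adjusted p = 0.00266). Trp63, a factor of stratified epithelium, read 8.98, 8.85 and 9.74 against 7.95, 6.24, 7.04 and 6.97 (2.14, limma adjusted p = 0.00881). All 5 called genes were also called without S-shaped body replicate 3 (limma adjusted p = 2.07e-05 for Scnn1g, 0.0144 for Scnn1b, 0.0223 for Avpr2, 0.0109 for Shh and 0.0195 for Trp63). The calls of Scnn1g, Scnn1b and Shh were kept without each of the 7 arrays, while that of Avpr2 was lost without tip replicate 1 (0.0739) or tip replicate 3 (0.0537) and that of Trp63 without tip replicate 3 (0.0818).

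Picked in the same way, Nrp2, Plxnd1, Sema3g and Slit3, genes known from axon and vessel guidance, were called higher in the S-shaped body with and without replicate 3. How many other guidance genes were measured and not called was not counted. Nrp2, a semaphorin and Vegf co-receptor, read 8.67, 7.96 and 8.99 in the tips against 12.94, 11.27, 12.56 and 11.98, a log2 fold change of -3.65 (SE 0.71, limma adjusted p = 0.00285). Plxnd1, a semaphorin receptor, read 9.57, 9.24 and 10.45 against 11.89, 11.65, 13.52 and 12.55 (-2.65, limma adjusted p = 0.00881), and Sema3g, a secreted semaphorin, 7.54, 5.68 and 7.76 against 9.18, 9.95, 12.04 and 9.84 (-3.26, limma adjusted p = 0.0047). Slit3, a ligand of Robo receptors, was at the floor in the tips at 5.5, 5.61 and 5.69 and read 9.21, 7.82, 8.7 and 9.12 in the S-shaped bodies (-3.11, limma adjusted p = 0.0112). For none of these 4 genes did the groups overlap. The call of Nrp2 was kept without each array, and tip replicate 2 was needed for the other 3 (limma adjusted p = 0.0974 for Plxnd1, 0.105 for Sema3g and 0.0619 for Slit3), as was tip replicate 1 for Plxnd1 (0.0574) and Slit3 (0.0594). Of the 16 endothelial markers 5 were called higher in the S-shaped body, and 1 without replicate 3, and their part in these values was not tested.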
